A study of Saccharomyces cerevisiae with 6 samples.

Results

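The members described here are the rows of a yeast read-count table that stand for Ty retrotransposons and their long terminal repeats (LTRs). They were chosen by name: a row was taken if its name held delta, sigma, tau or omega, the names of LTR classes, or Ty followed by a digit, the name of a full element. Of the 9891 rows of the table, 433 had such a name and 385 of these had a read in at least 1 library. The 385 members were 31 Ty1, 13 Ty2, 2 Ty3, 3 Ty4 and 1 Ty5 full elements, and 256 delta, 40 sigma, 32 tau and 7 omega LTRs. The rule itself uses only names and the presence of a read.

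The study compared the transcriptomes of Saccharomyces cerevisiae cells growing in log phase and of purified quiescent cells, with 3 RNA-seq libraries in each group. Every library came from 1 haploid strain, YCH406 (MATa), grown at 30 °C in YPD with adenine and ampicillin. The strain lacks both chromosomal pairs of the genes for histones H2A and H2B, hta1-htb1 (replaced by LEU2) and hta2-htb2 (replaced by TRP1), and carries the plasmids pSAB6, with HTA1-HTB1 and URA3, and pZS145, with HTA1-Flag-HTB1 and HIS3. Its RPB3 gene, for an RNA polymerase II subunit, bears a 9Myc tag marked by hphNT1, and its other alleles are his3∆200, leu2∆1, ura3-52 and trp1∆. Log cells were taken at an OD600 of 0.8 to 1.0, and quiescent cells were the dense fraction of day 7 cultures, purified on a Percoll gradient and again on a fresh one. The ura3-52 allele is itself a Ty1 insertion in URA3 that the reference genome does not hold, and the number and place of Ty elements vary between yeast strains. The rows follow the elements of the reference strain, and which of them YCH406 carries was not tested. Labels call the replicates biological.

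Ty elements are retrotransposons: RNA polymerase II transcribes the element from its 5′ LTR into the 3′ LTR, and the RNA is both translated into Gag and Gag-Pol proteins and reverse transcribed into new DNA copies. Ty1, Ty2, Ty4 and Ty5 belong to the copia group and Ty3 to the gypsy group. Most LTRs in the genome are solo, left behind when recombination between the LTRs of an element removed its body. Delta is the LTR of Ty1 and Ty2, sigma that of Ty3, tau that of Ty4 and omega that of Ty5. Ty1 to Ty4 insert next to genes read by RNA polymerase III, chiefly tRNA genes, and Ty5 into silent chromatin.

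The LTR sequences show how alike Ty1 and Ty2 are and how Ty3 and Ty4 differ from them, which bears on how reads can be assigned. The first 200 bases of the 5′ LTR are given for 1 element of each family, read 5′ to 3′ on the strand of the element from the R64 reference genome. Capitals mark TGAAACA, the core of the pheromone response element bound by Ste12.
YLRWTy1-3, delta, chrXII:650824-651023, plus strand: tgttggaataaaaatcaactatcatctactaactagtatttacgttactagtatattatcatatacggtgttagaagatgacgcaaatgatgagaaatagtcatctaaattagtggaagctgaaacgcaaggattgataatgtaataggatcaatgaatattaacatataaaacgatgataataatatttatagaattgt
YGRCTy2-1, delta, chrVII:574501-574700, minus strand: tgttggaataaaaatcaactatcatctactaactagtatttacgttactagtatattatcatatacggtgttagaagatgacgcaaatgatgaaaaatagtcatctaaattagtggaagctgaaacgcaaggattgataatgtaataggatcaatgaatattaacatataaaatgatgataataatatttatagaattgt
YGRWTy3-1, sigma, chrVII:707195-707394, plus strand: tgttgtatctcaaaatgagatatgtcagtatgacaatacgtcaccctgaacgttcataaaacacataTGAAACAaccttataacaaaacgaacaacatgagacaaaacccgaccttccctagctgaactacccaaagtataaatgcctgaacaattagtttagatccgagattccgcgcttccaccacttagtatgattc
YPLCTy4-1, tau, chrXVI:442913-443112, minus strand: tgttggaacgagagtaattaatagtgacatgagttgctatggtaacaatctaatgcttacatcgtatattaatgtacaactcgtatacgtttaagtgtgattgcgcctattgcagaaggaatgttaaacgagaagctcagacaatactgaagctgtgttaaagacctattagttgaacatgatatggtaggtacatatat

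Over their whole length, the Ty1 and Ty2 LTRs above were 95.0% identical, with a longest shared run of 93 bases. The Ty1 LTR was 56.3% identical to the Ty3 LTR and 57.8% to the Ty4 LTR, with longest shared runs of 8 and 9 bases. All 4 of the Ty3 LTRs inside full elements and 26 of 27 solo sigma LTRs of at least 300 bases held TGAAACA on either strand within their first 300 bases. The same letters were in 17 of 63 Ty1 LTRs inside full elements, 48 of 113 solo Ty1 LTRs, 0 of 20 Ty2 LTRs inside full elements, 0 of 6 Ty4 LTRs inside full elements and 7.89% of all windows of 300 bases in the 16 nuclear chromosomes. AGGGG, the core of the stress response element, was in 0 of the 63 Ty1, 1 of the 20 Ty2, 0 of the 4 Ty3 and 0 of the 6 Ty4 LTRs inside full elements, against 18.2% of all windows on either strand. These letter matches describe the reference sequence only.

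Total counts ran from 8894585 to 14213993 per library. In 2 short marker lists, 6 of 6 genes of quiescent or stationary cells rose and 6 of 6 log-phase genes fell. Of all tested rows, 32.8% rose and 35.2% fell. The marker lists were chosen with earlier results of these data known, so they are no independent test of the labels. The summed normalized CPM (counts scaled to library size) of the first list lay at 26.4 to 38.2 in log and 6071 to 7732 in quiescent libraries. Fold changes are quiescent against log. They are relative to the other rows of the same library, and in bulk RNA less RNA per cell cannot be told apart from fewer cells holding it. Members gave 0.510% ± 0.067 of all counts in log and 0.300% ± 0.051 in quiescent libraries (SD, n = 3 each). The 3 log libraries were at 0.536%, 0.561% and 0.434% and the 3 quiescent libraries at 0.303%, 0.349% and 0.247%, with no overlap (exact two-sided permutation p = 0.1, the smallest that 3 libraries against 3 allow). Outside the ribosomal DNA unit, the shares were 0.584% ± 0.060 and 0.433% ± 0.092. There the groups nearly touched, with quiescent replicate 2 at 0.5375% and log replicate 3 at 0.5379%.

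How the reads were assigned to rows sets what a full element row can show. The annotation also has 91 rows for gag and gag-pol coding sequences, all but 2 of them inside the elements. Their share of all counts was 5.09% ± 0.67 in the log and 3.30% ± 0.87 in the quiescent group (exact permutation p = 0.1). The 2 outside any annotated element, YLR035C-A with 45913 reads and YDR170W-A with 6008, are in this share but in no family sum. Of 28 gag rows on the plus strand, 25 had no read, while the gag-pol rows over the same bases did. The 48 rows named by the rule that had no read were LTRs: 40 lay inside full elements, 8 could not be resolved, and the 8 that could be placed at 1 position all lay at the low-coordinate end of an element. Where several rows cover the same bases, a read thus appears to have been given mostly to 1 of them, and a full element row to keep mainly the reads that no coding or LTR row took. The family values are therefore given for the element rows alone and for element and coding rows together.

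On their summed element rows, Ty1 and Ty2, the 2 most numerous families, were lower in quiescent cells, and Ty3 and Ty4 were higher. The summed Ty1 element rows stood at 2042, 2162 and 1870 normalized CPM in log replicates 1, 2 and 3 and at 982, 1593 and 1219 in quiescent replicates 1, 2 and 3. The groups did not overlap, and quiescent replicate 2 was the nearest to log. The log2 fold change was -0.68 (SE 0.26, edgeR adjusted p = 0.0373), and other scalings took the adjusted p to 0.0631 (median-of-ratios size factors) and 0.124 (TMM on protein-coding rows). It passed 0.05 in 1 of 6 fits that each left out a library, that without quiescent replicate 2. With the coding rows, Ty1 stood at 48905, 44631 and 45109 CPM in log and 26846, 46521 and 32274 in quiescent libraries, and quiescent replicate 2 lay inside the log range (log2 fold change -0.39, SE 0.39, adjusted p = 0.388). Ty1 thus passed the test on its element rows and not on element and coding rows together. The element rows hold only a small part of these reads: 29059 of 691677 in log replicate 1. A fall of Ty1 as a family is therefore not shown.

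Ty2 fell on both measures. Its summed element rows were at 800, 713 and 595 normalized CPM in log and 335, 427 and 405 in quiescent libraries, without overlap (log2 fold change -0.85, SE 0.22, adjusted p = 0.0054). With coding rows it was at 3145, 2807 and 2436 CPM in log and 1263, 1689 and 1569 in quiescent libraries (log2 fold change -0.89, SE 0.25, adjusted p = 0.0093). Within a library, the log2 ratio of Ty1 to Ty2 element counts was 1.53 ± 0.16 in log and 1.68 ± 0.19 in quiescent libraries, with overlapping groups (exact permutation p = 0.6, adjusted p = 0.6 over 6 planned ratios).

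Ty3, the gypsy-type family that mating pheromone is known to induce in haploid cells, rose 3.10-fold on its summed element rows. These were at 3.30, 3.35 and 2.26 normalized CPM in log and 8.81, 4.72 and 14.3 in quiescent libraries, so every quiescent library lay above every log library (log2 fold change 1.63, SE 0.42, adjusted p = 0.0062). With its coding rows Ty3 was at 14.2, 16.8 and 11.2 CPM in log and 39.4, 30.2 and 87.0 in quiescent libraries (log2 fold change 1.89, SE 0.37, adjusted p = 0.0012). Quiescent replicate 3 was the highest on both measures.

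Ty4 rose 2.59-fold on its element rows, from 7.10, 9.56 and 5.18 normalized CPM in log to 19.8, 13.1 and 23.6 in quiescent libraries (log2 fold change 1.37, SE 0.31, adjusted p = 0.0026). With coding rows it was at 36.5, 41.4 and 24.1 CPM in log and 86.2, 59.2 and 101.2 in quiescent libraries (log2 fold change 1.27, SE 0.26, adjusted p = 0.0016). Both sets of quiescent values lay above the log values. The only annotated Ty5 element was at 1.20, 2.35 and 0.88 CPM in log and 0.89, 0.53 and 2.02 in quiescent libraries, and the groups overlapped (log2 fold change -0.37, SE 0.66, adjusted p = 0.636).

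A ratio within a library does not depend on scaling between libraries. The log2 ratio of Ty1 and Ty2 to Ty3 and Ty4 element counts, chosen after these values were seen, was 8.09, 7.80 and 8.37 in log and 5.53, 6.82 and 5.42 in quiescent libraries. It was lower by 2.16 in quiescent cells, from 8.09 ± 0.29 to 5.92 ± 0.78, with no overlap (exact permutation p = 0.1). Leaving out 1 library at a time gave differences from -2.61 to -1.91.

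**Figure D1:**
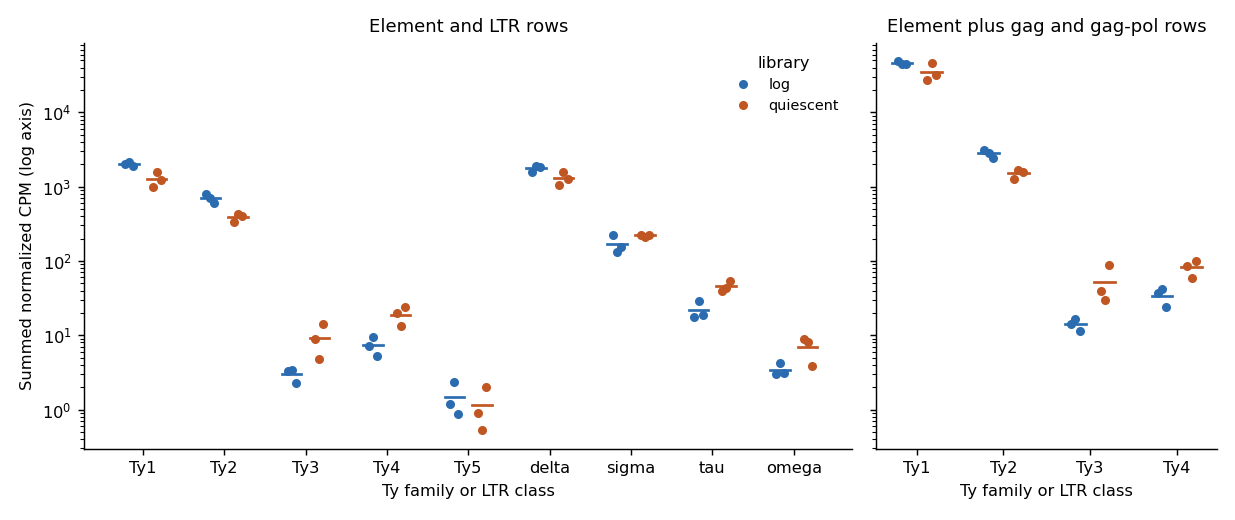
Summed normalized CPM of each Ty family and LTR class (log axis) in the 3 log and 3 quiescent libraries, for element and LTR rows at left and for element plus gag and gag-pol rows at right; points are libraries and bars are group means. Ty2 lies lower and Ty3, Ty4 and tau lie higher in every quiescent library, while the Ty1 groups overlap once coding rows are added.

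Among single full elements, 21 of 50 passed the filter on low values (a mean TPM, a length-scaled share of a library, of at least 1 over the 6 libraries), of which 16 fell, 0 rose and 5 did not pass the test. Over all 7305 tested rows 35.2% fell and 32.8% rose, and 67.9% were called in either direction. The fit without the filter takes in every member. There 25 of 31 Ty1 and 5 of 13 Ty2 element rows fell, 2 of 2 Ty3 and 2 of 3 Ty4 element rows rose, and the other 16 did not pass. Of all 9371 rows, 29.9% fell and 25.9% rose. These are element rows without their coding rows. The median log2 fold change was -0.90 over Ty1 and -0.84 over Ty2 elements, and 0.02 over all rows. Copies of a family share sequence, so the division of reads between them is uncertain: of the 100-base words of a Ty1 element, a median of 1.98% occurred nowhere else in the genome, with 7.97% for Ty2, 49.7% for Ty3, 5.31% for Ty4 and 100% for Ty5.

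YLRWTy1-3 on chromosome XII, at 650824 to 656743 on the plus strand, held 59.4% of all reads of Ty1 element rows. It lies at the 3′ end of HAP1, the gene of a haem-responsive transcription factor, and only a gag row covers it, so its pol region is not shared with a gag-pol row. Its counts were 17999, 13887 and 15753 in log and 5780, 11336 and 6545 in quiescent libraries, or 1188 ± 63 and 756 ± 212 normalized CPM (log2 fold change -0.65, SE 0.25, adjusted p = 0.0412). The adjusted p was 0.0739 with median-of-ratios scaling, 0.132 with scaling on protein-coding rows and 0.524 at a mean TPM of at least 10, and 5 of 6 fits that each left out a library gave 0.0879 to 0.140. The HAP1 row differed by 0.23 (SE 0.22, adjusted p = 0.371). Without YLRWTy1-3, the Ty1 sum had a log2 fold change of -0.70 (SE 0.24, adjusted p = 0.0234).

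The 4 other Ty1 elements named by the rule were YARCTy1-1, YJRWTy1-2, YBRWTy1-2 and YERCTy1-2. YBRWTy1-2 had 237, 427 and 275 counts in log and 83, 92 and 98 in quiescent libraries and fell by 1.43 on the log2 scale (SE 0.31, adjusted p = 0.0020). YERCTy1-2 had 391, 281 and 195 counts in log and 69, 92 and 91 in quiescent libraries and fell by 1.40 (SE 0.29, adjusted p = 0.0015). These 2 were the tested element rows of largest fall, and neither pair of groups overlapped. YJRWTy1-2 fell by 0.75 (SE 0.20, adjusted p = 0.0068), and YARCTy1-1, with 4169 reads in all, had -0.17 (SE 0.23, adjusted p = 0.514). These values are for the element rows alone, and the gag-pol rows inside the same elements held more reads. The gag-pol row of YBRWTy1-2 held 151360 reads, against 1212, and was at -0.27 (edgeR adjusted p = 0.383). That of YJRWTy1-2 held 138890 reads and was at -0.20 (adjusted p = 0.536). The gag-pol rows of YERCTy1-2 and YARCTy1-1 were at -0.67 (adjusted p = 0.0321) and -0.54 (adjusted p = 0.0954).

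The 3 Ty2 elements without any coding row in the annotation used, YNLCTy2-1, YGRCTy2-1 and YLRCTy2-2, held 91.5% of all reads of Ty2 element rows. YNLCTy2-1 on chromosome XIV, at 562364 to 567660, had 4310, 3242 and 3287 counts in log and 1257, 1949 and 1405 in quiescent libraries. It fell by 0.86 on the log2 scale (SE 0.20, adjusted p = 0.0032). YGRCTy2-1 fell by 0.81 (SE 0.19, adjusted p = 0.0033) and YLRCTy2-2 by 0.89 (SE 0.22, adjusted p = 0.0053), so the 3 elements that keep their coding reads fell by like amounts.

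The Ty3 and Ty4 elements were below the filter, and their fold changes come from the fit without it. YGRWTy3-1 had 24, 14 and 14 counts in log and 40, 29 and 59 in quiescent libraries (log2 fold change 1.56, SE 0.47, adjusted p = 0.0135). YILWTy3-1 had 23, 26 and 17 counts in log and 49, 25 and 75 in quiescent libraries (log2 fold change 1.43, SE 0.50, adjusted p = 0.0272); quiescent replicate 2 did not exceed log replicate 2 in raw counts. Its annotated gag-pol row held 0 reads.

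Among the Ty4 elements, YPLCTy4-1 had 82, 101 and 66 counts in log and 160, 117 and 189 in quiescent libraries (log2 fold change 1.14, SE 0.31, adjusted p = 0.0078). YJLWTy4-1 had 11, 10 and 3 against 20, 24 and 24 counts (log2 fold change 1.71, SE 0.58, adjusted p = 0.0236). YHLWTy4-1 had 8, 3 and 2 against 20, 9 and 9 counts and did not pass (log2 fold change 1.77, SE 0.71, adjusted p = 0.0502). All 3 had higher normalized CPM, which includes TMM scaling, in every quiescent than in every log library. YCLWTy5-1, near the left end of chromosome III at 1179 to 4322, had 17, 28 and 12 against 9, 6 and 19 counts (log2 fold change -0.51, SE 0.63, adjusted p = 0.515).

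The balance of gag and gag-pol reads within Ty1 did not overlap between the groups. In 15 Ty1 elements, all on the minus strand, the gag row and the gag-pol row both held reads. The log2 ratio of their summed gag reads to summed gag-pol reads was -1.54, -1.56 and -1.31 in log and -0.90, -0.95 and -1.03 in quiescent libraries. It was 0.51 higher in quiescent cells with no overlap (exact permutation p = 0.1). The mean ratio was higher in 14 of the 15 elements, whose reads are partly shared, but without overlap between the groups in only 9. This ratio was chosen after its values were seen. Gag is encoded toward the 5′ end of the RNA and Pol toward the 3′ end. RNA quality was not measured in these files, and its part in the ratio was not tested.

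The LTR rows were mixed. Of 335 LTR members, 195 passed the filter, and of these 25 rose, 48 fell and 122 did not pass the test. Both shares were below those of all tested rows, of which 32.8% rose and 35.2% fell. Over all members tested, elements included, 25 rose and 64 fell, and with scaling on protein-coding rows 30 rose and 41 fell. Without the filter, 42 LTR rows rose, 58 fell and 235 did not pass, while 25.9% of all 9371 rows rose and 29.9% fell. By place, 33 delta rows lay inside full elements, and of these 0 rose and 15 fell without the filter, while 28 of the 204 solo delta rows rose and 28 fell. The median log2 fold change was -0.89 inside full elements and 0.02 for solo delta rows. A further 19 delta rows could not be resolved, and 9 of them fell.

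Summed over all rows, delta stood at 1565, 1872 and 1857 normalized CPM in log and 1048, 1576 and 1272 in quiescent libraries, and the groups overlapped (log2 fold change -0.44, SE 0.25, adjusted p = 0.136). Delta inside full elements had -0.53 (SE 0.27, adjusted p = 0.102) and solo delta -0.32 (SE 0.20, adjusted p = 0.177). The log2 ratio of delta to Ty1 and Ty2 element counts was -0.63 ± 0.23 in log and -0.35 ± 0.02 in quiescent libraries, without overlap (exact permutation p = 0.1, adjusted p = 0.3).

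Sigma, the LTR of Ty3, was at 227, 132 and 153 normalized CPM in log and 226, 213 and 222 in quiescent libraries. Log replicate 1 reached the quiescent level, and the difference did not pass the test (log2 fold change 0.37, SE 0.23, adjusted p = 0.171). Without log replicate 1 it was 0.63 by the same fit (edgeR adjusted p = 0.0384). Of the 40 sigma rows, 4 rose, 4 fell and 32 did not pass without the filter, beside 25.9% of all rows that rose and 29.9% that fell. A pair of rows, YERCsigma3 and YLRCsigma1, held 73.7% of all sigma reads.

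Tau, the LTR of Ty4, rose 2.09-fold. Its sum was at 17.4, 29.0 and 18.98 normalized CPM in log and 39.4, 43.6 and 53.9 in quiescent libraries, with no overlap (log2 fold change 1.07, SE 0.24, adjusted p = 0.0025). Without the filter 9 of 32 tau rows rose and 0 fell, beside 25.9% and 29.9% of all rows, so the share that rose was near that of all rows; 3 of the 9 being the 3 that lay inside full elements. The sum over those 3 rows had a log2 fold change of 2.05 (SE 0.45, adjusted p = 0.0025), and the 29 solo tau rows one of 0.95 (SE 0.24, adjusted p = 0.0050). The log2 ratio of delta to tau was lower by 1.55 in quiescent cells, from 6.37 ± 0.32 to 4.82 ± 0.32, again with no overlap (exact permutation p = 0.1, adjusted p = 0.3). The log2 ratio of tau to Ty4 differed by -0.29 (exact permutation p = 0.4, adjusted p = 0.48), that of sigma to Ty3 by -1.11 (p = 0.2, adjusted p = 0.3) and that of delta to sigma by -0.87 (p = 0.2, adjusted p = 0.3), by the same exact permutation test.

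Omega, the LTR of Ty5, was at 3.02, 4.28 and 3.07 normalized CPM in log and 8.81, 8.05 and 3.83 in quiescent libraries. Quiescent replicate 3 lay inside the log range (log2 fold change 1.00, SE 0.39, adjusted p = 0.0407), and the adjusted p was 0.117 with total-count scaling. Leaving out log replicate 1 or 3 or quiescent replicate 1 or 2 put it at 0.0805 to 0.139. Of these reads, 264 of 353 came from YHLComega1, which had 30, 32 and 27 counts in log and 83, 65 and 27 in quiescent libraries (log2 fold change 1.33, SE 0.44, adjusted p = 0.0218). Leaving out log replicate 1 gave YHLComega1 an adjusted p of 0.062, and leaving out quiescent replicate 1 gave 0.106. YERWomega2 had 3, 1 and 1 counts in log and 1, 13 and 1 in quiescent libraries. YCLWomega2, inside YCLWTy5-1, had 4, 8 and 6 counts in log and 0, 0 and 2 in quiescent libraries.

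**Figure D2:**
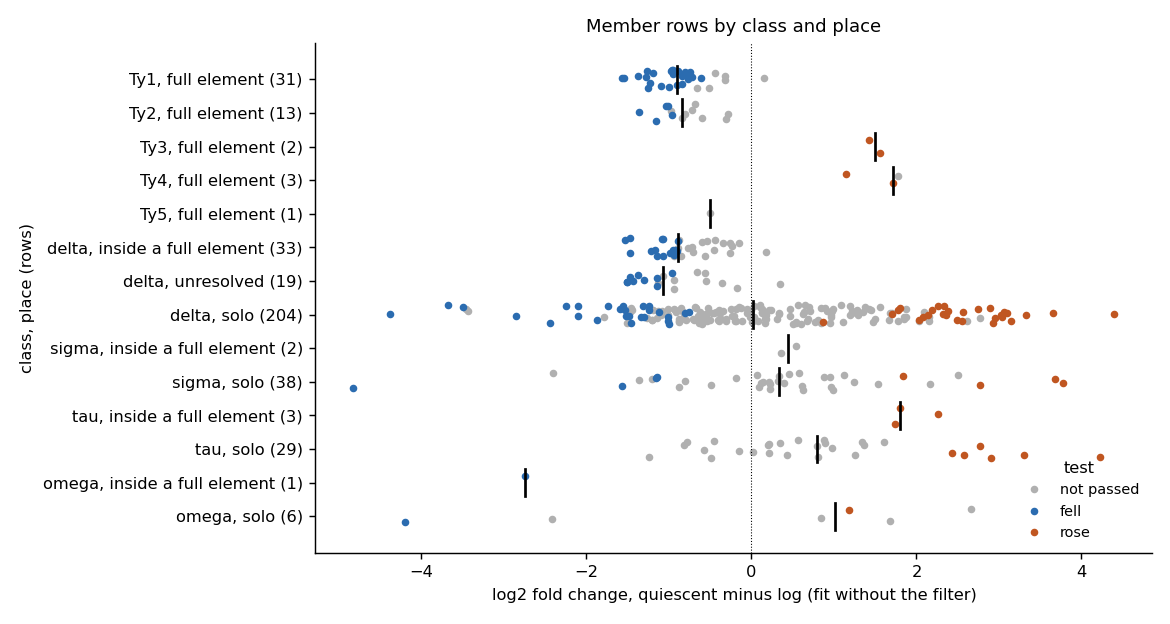
Log2 fold change of every member row in the fit without the filter, by class and place in the genome; points are rows, coloured by the test, and black bars are medians. Ty1, Ty2 and the delta rows inside full elements lie mostly below 0, Ty3, Ty4 and the tau rows inside full elements lie above 0, and solo delta rows spread to both sides.

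Some solo LTRs had larger fold changes than any full element. YGRCdelta20 on chromosome VII, at 713084 to 713384 on the minus strand, was the tested delta row of largest rise with at least 10 reads in each quiescent library. It had 9, 11 and 6 counts in log and 220, 158 and 99 in quiescent libraries, or 0.66 ± 0.24 and 15.5 ± 5.8 normalized CPM (log2 fold change 4.54, SE 0.42, adjusted p = 5.79e-06). Every 100-base word of it is unique in the genome. Its nearest gene, CLD1, which encodes a mitochondrial cardiolipin-specific phospholipase, lies 324 bases away and rose by 3.69 (SE 0.27) on the same scale. YKLCdelta5 rose by 3.30 (SE 0.61, adjusted p = 0.000786), from 4, 5 and 5 counts to 35, 20 and 51, beside STB6, 451 bases away, at -0.38 (SE 0.22, adjusted p = 0.159). YGRCdelta20 and YKLCdelta5 were both low in log and reached the filter mainly through their quiescent counts. Without the filter they rose by 4.40 and 3.14 (edgeR adjusted p = 2.10e-06 and 0.000608). YNRCdelta7 and YGRCdelta20 differ in how much of the Ty1 LTR they keep, and their sequences follow on the minus strand, whole for the first and the first 200 bases of the second.
YNRCdelta7, chrXIV:631998-632114: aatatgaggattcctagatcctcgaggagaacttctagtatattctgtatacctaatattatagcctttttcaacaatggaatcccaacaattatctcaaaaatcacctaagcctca
YGRCdelta20, chrVII:713185-713384: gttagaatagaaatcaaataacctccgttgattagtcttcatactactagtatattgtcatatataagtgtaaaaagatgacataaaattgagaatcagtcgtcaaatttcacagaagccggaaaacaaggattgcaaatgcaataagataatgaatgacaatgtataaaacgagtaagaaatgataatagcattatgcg

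YNRCdelta7 is a fragment of 117 bases that shared a run of 52 bases with the LTR of YLRWTy1-3, while YGRCdelta20, at 301 bases, was 65.7% identical to that LTR and shared at most 12 bases in a row with it. YNRCdelta7 had 337, 478 and 2219 counts in log and 65, 90 and 73 in quiescent libraries. Log replicate 3 stood apart, and the log2 fold change was -3.34 with it (SE 0.63, adjusted p = 0.000897) and -2.03 without it (SE 0.28, adjusted p = 0.000189). A proline tRNA gene lies 80 bases away. ATO2, the nearest protein-coding gene at 893 bases and the gene of a putative ammonium exporter, rose by 7.97 (SE 0.46). YLRCdelta21 on chromosome XII had 341, 519 and 423 counts in log and 28, 25 and 33 in quiescent libraries and fell by 3.53 (SE 0.31, adjusted p = 3.53e-06), and an arginine tRNA gene lies 205 bases away. GAS2, its nearest protein-coding gene at 311 bases, fell by 0.84 (SE 0.28). The 3 delta rows of most reads, YARCdelta5, YPRCdelta19 and YERCdelta20, lie inside full elements and did not pass, with -0.29, -0.31 and -0.20; without quiescent replicate 2 they were at -0.65, -0.72 and -0.64, each with an adjusted p under 0.05.

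Among solo sigma rows, YORWsigma4 on chromosome XV had 14, 8 and 5 counts in log and 88, 150 and 65 in quiescent libraries and rose by 3.82 (SE 0.46, adjusted p = 3.66e-05). YOR343C, its nearest protein-coding gene at 516 bases, rose by 2.99 (SE 0.69). YILWsigma3 on chromosome IX had 7, 23 and 5 counts in log and 79, 56 and 73 in quiescent libraries and rose by 2.91 (SE 0.60, adjusted p = 0.0015). YORWsigma4 and YILWsigma3 were both low in log, and without the filter they rose by 3.68 and 2.77 (edgeR adjusted p = 1.97e-05 and 0.0011). BAR1, the gene of the protease that degrades alpha-factor, lies 285 bases from YILWsigma3 and fell by 3.90 (SE 0.26). YPRWsigma3 had 21, 27 and 25 counts in log and 4, 8 and 9 in quiescent libraries (log2 fold change -1.41, SE 0.55, adjusted p = 0.0430); no fit that left out a library kept it under 0.05.

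The 2 sigma rows of most reads did not pass. YERCsigma3, which could not be placed at 1 position, had 1719, 676 and 1009 counts in log and 1147, 1124 and 1046 in quiescent libraries (log2 fold change 0.38, SE 0.26, adjusted p = 0.226), while leaving out log replicate 1 gave 0.74 (adjusted p = 0.0198). YLRCsigma1 had 819, 325 and 597 counts in log and 459, 698 and 469 in quiescent libraries (log2 fold change 0.30, SE 0.26, adjusted p = 0.340).

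Among solo tau rows, YMRWtau2 had 4, 5 and 4 counts in log and 33, 47 and 34 in quiescent libraries and rose by 3.45 (SE 0.51, adjusted p = 0.000159). YNLWtau2 had 2, 7 and 5 counts against 17, 29 and 46 and rose by 3.06 (SE 0.68, adjusted p = 0.0024). YHRWtau3 had 10, 8 and 7 counts against 40, 67 and 42 and rose by 2.92 (SE 0.44, adjusted p = 0.000203). None of the 3 had overlapping groups, and only in YHRWtau3 was every 100-base word unique. All 3 were low in log and reached the filter mainly through their quiescent counts, with mean TPM of 1.36, 1.11 and 2.58. Without the filter they rose by 3.31, 2.90 and 2.77 (edgeR adjusted p = 0.000128, 0.0020 and 0.000200). Their nearest protein-coding genes, SHH3, NCE103 and RPS27B at 1036, 1127 and 756 bases, were at 6.89, 3.83 and -3.99 on the same scale. YGRCtau3 and YJLWtau4, also among the tau rows of most reads, were at -0.34 (SE 0.42, adjusted p = 0.482) and 0.17 (SE 0.49, adjusted p = 0.774).

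**Figure D3:**
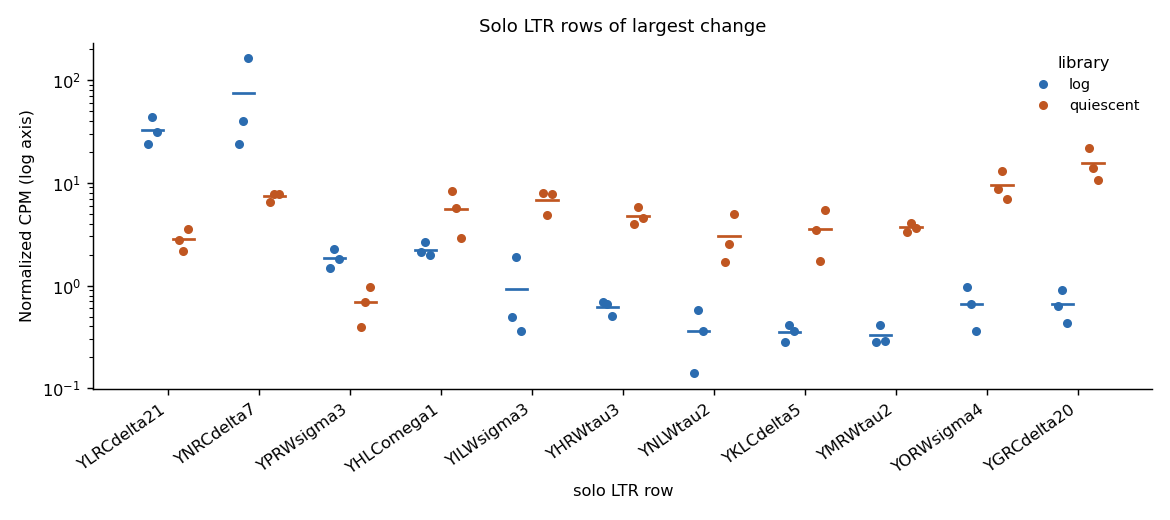
Normalized CPM (log axis) in each library of the solo LTR rows that the naming rule picked and that passed the test, ordered by fold change; points are libraries and bars are group means. The 3 log libraries of YNRCdelta7 are spread widely, with log replicate 3 highest, while both groups of YMRWtau2 are tight.

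The solo LTRs that could be placed were also counted by sequence uniqueness, with no test of the difference. Of 142 solo delta rows whose every 100-base word is unique, 24 rose and 9 fell without the filter, with a median log2 fold change of 0.32. Of 32 with repeated words, 3 rose and 11 fell, with a median of -0.70. Rows with repeated words can take reads from the Ty1 and Ty2 families, and the part of such reads in these values was not tested. Over all 172 placed solo LTRs with unique words, 29 rose, 11 fell and 132 did not pass, beside 25.9% of all rows that rose and 29.9% that fell.

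Solo LTRs can lie within the transcripts of neighbouring genes. For 69 LTR rows with a tested protein-coding gene within 500 bases, Spearman's rho between the log2 fold changes of LTR and gene was 0.20 as a description, with both values drawn from the same libraries. Both were called in 17 pairs and had the same direction in 13: 7 in which both rose and 6 in which both fell. Among all tested rows 67.9% were called, and pairs of other neighbouring rows were not counted for comparison. YGRCdelta20 with CLD1 is a pair that rose, and YILWsigma3 with BAR1 a pair of opposite direction. Reads that run from a gene into an LTR cannot be told apart from reads that start in the LTR.

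The classes differed in where they lie. Of 31 placed solo sigma rows, 26 lay 14 to 18 bases from a tRNA gene, with a median gap of 16 bases, and all 26 were upstream of it, 20 of them on the opposite strand. The junctions of 4 placed sigma rows show the gap; YILWsigma3 is on the opposite strand to its tRNA gene, as most are, and the other 3 are on the same strand. Each runs from the 20 bases of the LTR nearest to the tRNA gene through the gap to the first 10 bases of the tRNA gene, which are in capitals, on the strand of the tRNA gene.
YLRCsigma1 and a serine tRNA gene, chrXII:168016-168062, minus strand: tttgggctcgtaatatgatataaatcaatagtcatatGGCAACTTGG
YILWsigma3 and an aspartate tRNA gene, chrIX:324365-324410, minus strand: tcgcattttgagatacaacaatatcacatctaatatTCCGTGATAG
YHLCsigma1 and a valine tRNA gene, chrVIII:85362-85407, minus strand: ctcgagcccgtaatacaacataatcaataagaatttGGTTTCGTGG
YHRCsigma2 and an alanine tRNA gene, chrVIII:146305-146350, minus strand: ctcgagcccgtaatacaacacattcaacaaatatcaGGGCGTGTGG

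The gap was 17 bases in YLRCsigma1 and 16 bases in the other 3. Solo delta rows lay farther away, with a median gap of 374 bases, and 140 of 182 were within 1000 bases of a tRNA gene. Solo tau rows had a median gap of 454 bases, with 22 of 29 within 1000 bases. None of the 6 placed solo omega rows, the LTRs of a family with another target, lay within 1000 bases, and their median was 35980.5 bases. Of the 140 delta rows near a tRNA gene, 23 rose and 16 fell without the filter, and of the 42 farther ones 4 rose and 5 fell, with medians of 0.03 and 0.35. In the same fit, 25.9% of all rows rose and 29.9% fell, so both sets were called less often than rows in general.

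**Figure D4:**
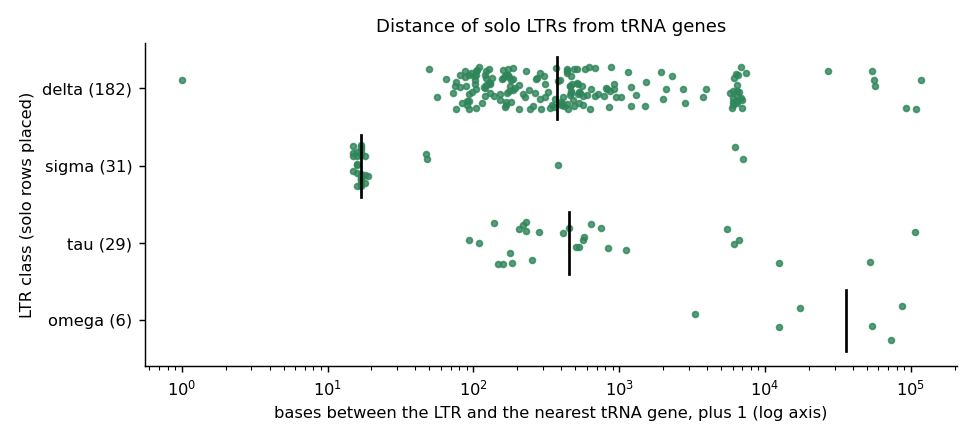
Bases between each placed solo LTR with a row and the nearest tRNA gene, plus 1, by class (log axis); points are LTRs and bars are medians. Sigma rows stack at 14 to 18 bases, delta and tau rows spread more widely, and all 6 omega rows lie beyond 1000 bases.

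Genes known to act on Ty elements changed in both directions. The list held 52 genes, all tested: 12 rose, 24 fell and 16 did not pass, with a median log2 fold change of -0.24 beside -0.02 over all tested rows and against 32.8% and 35.2% of all rows called as rising and falling. Of 8 transcriptional activators, 5 fell and 1 rose. With total-count scaling the whole list had 6 rising and 24 falling genes. TEA1, which encodes an activator that binds within Ty1, fell by 1.27 (SE 0.19, adjusted p = 0.000187), from 32.7 ± 4.7 to 13.5 ± 0.8 normalized CPM. GCR1, for an activator of glycolytic genes and of Ty elements, fell by 1.10 (SE 0.21, adjusted p = 0.000926), from 54.7 ± 1.4 to 25.5 ± 6.0. STE12, whose product binds the TGAAACA element shown in the Ty3 LTR, fell by 0.98 (SE 0.18, adjusted p = 0.000879). TEC1, for the partner of Ste12 on Ty1, rose by 0.55 (SE 0.18, adjusted p = 0.0202), from 23.88 ± 2.96 to 34.96 ± 2.28; the adjusted p was 0.0525 without log replicate 3, 0.097 without the filter (log2 fold change 0.40) and 0.373 with total-count scaling (0.32).

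Of 19 coactivator and chromatin genes, 5 rose and 5 fell, both below the 32.8% and 35.2% of all tested rows. SWI1, of the SWI/SNF remodelling complex, rose by 1.17 (SE 0.21, adjusted p = 0.000694), and MOT3, for a zinc-finger transcription factor, by 1.03 (SE 0.24, adjusted p = 0.0031). SPT4, for an elongation factor subunit, fell by 1.49 (SE 0.30, adjusted p = 0.0013), and HIR3, of a histone chaperone complex, by 1.14 (SE 0.23, adjusted p = 0.0014). Within SWI/SNF, SWI3 fell by 0.84 (SE 0.21, adjusted p = 0.0052), and SNF2, the ATPase, was at -0.01 (SE 0.18, adjusted p = 0.980). SNF6 rose by 0.85 (SE 0.33, adjusted p = 0.0412), but its groups overlapped. Its quiescent replicate 3, at 20.3 normalized CPM, lay below log replicate 3, at 21.3.

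Of 11 genes that limit Ty1 copy number or movement, 7 fell and 2 rose, beside 35.2% and 32.8% of all tested rows. RTT107, a scaffold of the DNA damage response, fell by 1.99 (SE 0.21, adjusted p = 1.28e-05), from 43.9 ± 2.5 to 11.03 ± 2.20 normalized CPM. RRM3, a helicase that acts at stalled forks, fell by 1.64 (SE 0.23, adjusted p = 0.000124). RTT101, a cullin, rose by 1.16 (SE 0.18, adjusted p = 0.000248), and SGS1, a RecQ helicase, by 1.12 (SE 0.20, adjusted p = 0.000577). FUS3, the pheromone kinase known to inhibit Ty1, fell by 0.73 (SE 0.20, adjusted p = 0.0092).

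Of 7 RNA host factors, 5 fell and 1 rose, beside 35.2% and 32.8% of all tested rows. DBR1, the RNA debranching enzyme needed for efficient Ty1 transposition, rose by 2.00 (SE 0.24, adjusted p = 3.30e-05), from 8.45 ± 1.42 to 33.8 ± 7.0 normalized CPM. LSM1, of the decapping activator complex, fell by 1.67 (SE 0.17, adjusted p = 1.28e-05), from 40.7 ± 1.6 to 12.8 ± 0.5, and BUD22, a nuclear ribosome biogenesis factor needed for Ty1 Gag synthesis, fell by 1.39 (SE 0.27, adjusted p = 0.0011).

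Of 7 genes that steer integration, 3 rose and 2 fell, beside 32.8% and 35.2% of all tested rows. RPC40, a subunit shared by RNA polymerases I and III that binds Ty1 integrase, had the largest fall of the list, by 2.97 (SE 0.36, adjusted p = 4.37e-05), from 115.9 ± 9.6 to 14.8 ± 8.5 normalized CPM. TFC3, of the TFIIIC factor of tRNA genes, rose by 1.56 (SE 0.19, adjusted p = 3.66e-05), from 29.8 ± 2.0 to 88.1 ± 14.0. BDP1, of TFIIIB, rose by 0.62 (SE 0.20, adjusted p = 0.0200), and the adjusted p was 0.0956 without log replicate 1 and 0.062 without quiescent replicate 1. SPT15, for TATA-binding protein, fell by 0.50 (SE 0.20, adjusted p = 0.0486), and 5 of the 6 fits that each left out a library put it above 0.05. SIR4, the silencing protein that draws Ty5 to silent chromatin, rose by 0.61 (SE 0.18, adjusted p = 0.0131).

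**Figure D5:**
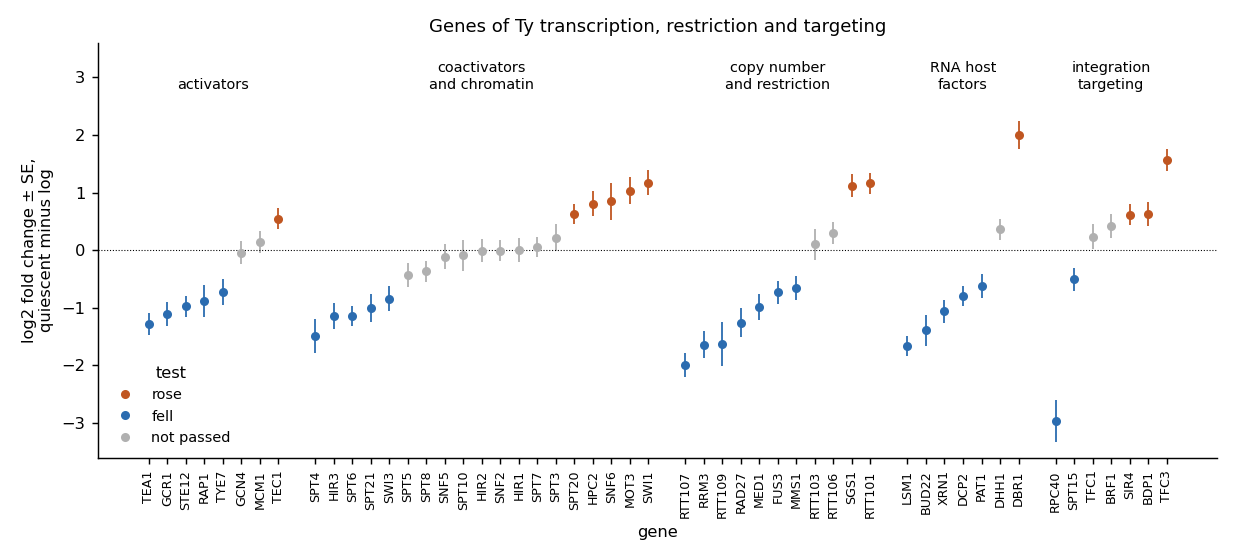
Log2 fold change with its standard error of the 52 genes of Ty transcription, restriction and targeting, ordered within each list; colour gives the test. RPC40 lies lowest at -2.97 and DBR1 highest at 2.00.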

How the data were processed

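The values used are whole raw counts of reads for each annotated feature, as deposited by the authors with the length of the feature, per the file headers. The submitters' processing notes name genome build R64. No source used here gives the aligner, the counter or whether strand was used, so reads of overlapping or antisense features cannot be told apart. The labels' protocols state ribosomal RNA depletion and sequencing on an Ion Proton. A further 6 columns of values were not used. Members and gene lists were chosen with earlier results of these data known.

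The edgeR quasi-likelihood test (edgeR 4.0.16, R 4.3.3) was fitted to the 7305 rows whose TPM (each library scaled for row length and depth, computed from counts and lengths) averaged at least 1, with TMM scaling and all 6 libraries. Benjamini-Hochberg adjustment ran over all 7305 rows with a threshold of 0.05; rows past it are said to have risen or fallen. For family and class values, the rows of each were replaced by their sum, which takes in every member. The same test without the filter covered 9371 rows, and its fold changes are shifted from the main ones by its own scaling. Levels are normalized CPM, mean ± SD. The script was tested on simulated data in which few rows changed, equally in both directions. In these data 67.9% of tested rows were called, and the simulation does not cover scaling under such wide change. For shares and ratios, exact permutation tests over libraries were used, two-sided. Alternatives were other scalings and filters, DESeq2 1.42.0, limma 3.58.1 on log2(TPM + 1), a replicate block and each library left out.

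Full elements were matched by name to the R64 reference annotation, in which all 50 had the deposited length. RefSeq LTR entries carry no names there, so an LTR row was placed only where chromosome, arm, strand, class and length fitted 1 entry, which held for 262 of 383 rows by name; of 214 neighbouring placed pairs, 212 follow the order of their numbers. Uniqueness is the share of 100-base words found once in the genome, on either strand. Gaps count the bases between 2 features. Sequences are those of RefSeq, R64.

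From each class the text names the 3 members of most reads and up to 2 called members of largest rise and of largest fall with at least 10 reads in each library of the higher group, every element of families of 5 or fewer, and from each regulator list up to 2 called genes of largest rise and fall. STE12, FUS3, SIR4, SNF2, SNF6 and SWI3 were named after their values were seen, and the nearest genes and the LTRs of the printed junctions are named for position.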

Additional observations from a re-analysis of the deposited data

How the results depend on the processing

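Of the family and class sums, Ty2, Ty3, Ty4 and tau kept their direction and side of the threshold with median-of-ratios, total-count and protein-coding scaling, DESeq2, the replicate block and each library left out. On the limma scale of log2(mean TPM over member rows + 1), Ty3 (0.078), Ty4 (0.062), tau (0.040) and omega (0.062) no longer passed, delta passed (-1.28), and sigma turned to -0.57 (adjusted p = 0.0558). The mean TPM of Ty3 and Ty4 rows is below the pseudocount of 1, and the median of all tested rows is -0.79 on the limma scale of log2(TPM + 1), against 0.18 with protein-coding scaling, -0.24 with total-count scaling and -0.02 in the main fit. Ty1 no longer passed with median-of-ratios scaling (-0.62) or protein-coding scaling (-0.47), unresolved delta rows likewise (-0.52 and -0.36), sigma passed with protein-coding scaling (0.57), and omega (0.84) and solo omega (1.03) no longer passed with total-count scaling. Ty2, delta, sigma, tau and omega kept their calls when only placed rows overlapping no annotated gene were summed. These sums also left out every LTR row that could not be placed, among them YERCsigma3 with 49.1% of sigma reads. Ty1, Ty3 and Ty4 have no placed row free of overlap. The unstable transcripts named CUT and SUT have no coordinates in the reference used, so their overlap was not applied.

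The replicate numbers did not pair the libraries: the deviations of same-numbered libraries correlated at 0.12, -0.15 and -0.17. With the replicate block, 22 members rose and 57 fell, and Ty1 (-0.70, adjusted p = 0.0611) and omega (0.94, adjusted p = 0.0642) did not pass.

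The member counts were 46 rising without the filter, 5 rising and 7 falling at a mean TPM of at least 10, which left 47 members tested, 41 falling with protein-coding scaling, and 19 rising and 143 falling with limma. Of the regulator genes, 6 rose with total-count scaling, 1 rose and 38 fell with limma, and 2 rose and 5 fell at the higher filter, which left 11 tested. The cause of the other changes was not tested.

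Leaving out 1 library at a time, falling members ranged from 41 (without log replicate 2) to 71. The sums ranged from -0.88 to -0.53 for Ty1, -1.003 to 0.12 for Ty5 (reversed without log replicate 2; -1.01 to 0.11 with coding rows), -0.61 to -0.31 for delta, 0.21 to 0.63 for sigma and 0.79 to 1.33 for omega. By place they ranged from -0.82 to -0.34 for delta inside elements, -0.83 to -0.42 for unresolved delta, -5.51 to -2.06 for omega inside an element, 0.95 to 1.53 for solo omega and 0.19 to 0.61 for solo sigma.

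Single rows that changed sign were all uncalled in the main fit, except TEC1 (-0.40) and BDP1 (-0.29) with limma. They were YARCTy1-1 with protein-coding scaling (0.018), YARCdelta5 (0.19), YPRCdelta19 (0.17) and YERCdelta20 (0.28) at the higher filter, YERCdelta20 without log replicate 3 (0.044) or quiescent replicate 1 (0.025; range -0.64 to 0.044 over libraries left out), and YERCsigma3 (-0.56), YLRCsigma1 (-0.65) and YJLWtau4 (-0.59) with limma. YJLWtau4 was also at -0.15 with total-count scaling, -0.0054 without log replicate 3 and -0.089 without quiescent replicate 3, with a range of -0.089 to 0.44 over libraries left out. Depth limits what single rows can show: 25 members, all of them LTR rows, had fewer than 10 reads in all libraries together, and the median member had 106.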
